A study of Mus musculus with 16 samples.

Results

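The tachykinins are short excitatory peptides, and the mouse genes for them and for their receptors form a set of 6: the ligand precursors Tac1, Tac2 and Tac4 and the receptors Tacr1, Tacr2 and Tacr3. These 6 genes were taken by name from the 56748 genes of the count table, not by a cut on measured values. Earlier results of these data were known when these genes were chosen. They were followed through 16 bulk RNA libraries of the longitudinal muscle and myenteric plexus (LMMP), the outer muscle of the colon peeled off with the nerve network attached to it. HSCR mice were homozygous for a disrupted endothelin B receptor gene (Ednrb -/-, allele Ednrb tm1Ywa) and lack ganglia in the distal colon, as in Hirschsprung disease. WT mice were their Ednrb +/+ littermates. All were 2 to 4 weeks old, male or female, on a hybrid C57BL6/J-129Sv background, and neither genotype received a treatment. The proximal and the distal colon of each genotype gave 4 libraries, a design that asks how the ganglionated and the aganglionic segment of the mutant differ from the same segments of a normal colon. The gene is disrupted in every cell of the animal from conception, so a value in either segment belongs to a constitutive mutant. The labels do not say whether a proximal and a distal library come from 1 mouse. For the 8 distal libraries the title names the distal colon and the tissue entry the proximal colon, and the titles were followed.

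Tac1 encodes substance P and neurokinin A, which excitatory motor neurons of the gut release onto muscle together with acetylcholine. Tac2 encodes neurokinin B, best known from the brain, and Tac4 encodes hemokinin-1, best known from immune cells. All act on the NK1, NK2 and NK3 receptors, the products of Tacr1, Tacr2 and Tacr3, which couple through Gq to phospholipase C and calcium release. In the gut wall the NK1 receptor is known from enteric neurons and interstitial cells of Cajal, the pacemaker cells, the NK2 receptor from smooth muscle, and the NK3 receptor from enteric neurons.

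The family resemblance of the ligands lies in the end of each peptide. The 11 codons that end with each peptide's last residue are shown because these stretches define which genes are tachykinins, and the capitals mark the final 5 codons, which encode the shared carboxy-terminal motif. Neurokinin A and neurokinin B are 1 residue shorter than substance P, so the first codon shown for them lies before the peptide. They were read 5′ to 3′ from the GRCm39 (mm39) reference, plus strand, with GENCODE M39 coding exons.
Tac1, substance P, chr6:7556732-7556764: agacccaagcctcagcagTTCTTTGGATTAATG
Tac1, neurokinin A, split by an intron within chr6:7557743-7559130: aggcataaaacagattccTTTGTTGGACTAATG
Tac2, neurokinin B, split by an intron within chr10:127564345-127565014: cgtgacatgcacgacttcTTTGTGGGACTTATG
Tac4, hemokinin-1, chr11:95156086-95156118: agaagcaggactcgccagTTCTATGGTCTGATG

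In the capitals, the substance P and neurokinin A stretches of Tac1 shared 12 of 15 bases, and over all 33 bases they shared 19. The nearest relative of substance P over the 33 bases was hemokinin-1, with 23 identical bases. Neurokinin A was nearest to neurokinin B, with 20. Coding transcripts of Tac1 were kept if their annotated start was complete, and their ends were not checked. The substance P stretch was present in 14 of 15 such transcripts, and the neurokinin A stretch in 12. A count for Tac1 sums these transcripts, so it does not separate messages with the neurokinin A exon from those without it.

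None of the 6 genes overlapped another gene of the table. On mm39, Tac1 (ENSMUSG00000061762) lies at chr6:7554879-7565834, Tac2 (ENSMUSG00000025400) at chr10:127560347-127567637 and Tac4 (ENSMUSG00000020872) at chr11:95152355-95160091. Tacr1 (ENSMUSG00000030043) lies at chr6:82379315-82537085, Tacr2 (ENSMUSG00000020081) at chr10:62088217-62101769 and Tacr3 (ENSMUSG00000028172) at chr3:134534768-134640340, and all 6 are on the plus strand. Levels between genes were compared only as CPM, a gene's counts scaled to the size of its library, per kb of gene length, and the order depended on the group. In WT proximal libraries the mean was 63.2 CPM per kb for Tac1, 15.4 for Tacr2, 5.13 for Tacr1 and 2.81 for Tacr3. In WT distal libraries Tacr2 came first by mean at 22.2, before Tac1 at 15.5, but not in WT distal 3 (22.5 and 42.3). By mean, Tac1 in both HSCR groups (2.45 proximal, 1.97 distal) stood below Tacr2 (14.4 and 19.3) and Tacr1 (5.75 and 4.50). Tac1 was above both receptors in HSCR proximal 3 (6.50, against 4.38 and 3.34) and in the library labelled HSCR distal 1 (7.53, against 5.31 and 5.58). In HSCR proximal 2 it was above Tacr1 only (2.35 against 0.479). The other HSCR libraries kept the order of the means. Averaged over all 16 libraries, Tac4 was at 0.207 and Tac2 at 0.0691 CPM per kb.

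The libraries held between 21384372 and 45831881 counted reads, a median of 34058870.5, and mitochondrial genes took 4.32% to 49.8% of them. The highest shares were those of WT proximal 1 (49.8%) and WT proximal 4 (34.6%). WT proximal 2 and 3 had 17.8% and 7.31%, and the HSCR proximal libraries 5.56% to 20.1%. Smooth muscle genes were counted in every library: the list of 10 genes summed to between 4440 and 95355 CPM, with none of the 10 at 0. The lowest sum was that of HSCR proximal 2, where 14 epithelial genes summed to 18434 CPM, so its tissue was not muscle layer alone. Ednrb itself gave 33.8 to 67.1 CPM in WT proximal, 7.84 to 37.4 in HSCR proximal, 11.8 to 43.0 in WT distal and 5.43 to 94.7 in HSCR distal libraries. The counts cover the whole gene, and the share of it that the allele removes was not analysed here. The values of 2 libraries went against their labels. The library labelled HSCR distal 1 had the 94.7 CPM of Ednrb, and its level of Hoxd13, a gene of the hindmost body axis, was 0.615 CPM, against 14.0 to 219 in the other HSCR distal and 117 to 215 in the WT distal libraries. The library labelled HSCR proximal 1 had 125 CPM of Hoxd13, against 0.662 to 2.35 in the other HSCR proximal and 0.861 to 23.9 in the WT proximal libraries. Both were kept in the groups their labels give, and the main results that rest on them are given with and without them.

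Tac1 was the member with the widest spread. In the WT proximal colon its 4 libraries held 26.7, 134, 327 and 371 CPM, in the order of their replicate numbers. In the HSCR proximal colon they held 0.550 (the library labelled HSCR proximal 1), 7.99, 22.1 and 2.68 CPM. Every HSCR proximal library lay below every WT proximal library, although HSCR proximal 3 and WT proximal 1, at 22.1 and 26.7 CPM, were close.
The WT distal libraries held 3.09, 2.22, 144 and 61.3 CPM, and the HSCR distal libraries 25.6 (the library labelled HSCR distal 1), 0, 1.24 and 0 CPM. These distal groups overlapped, because the library labelled HSCR distal 1 lay above 2 of the WT libraries. The 2 libraries without a count allowed levels of up to 0.109 and 0.0685 CPM, the value of 3 counts there, which covers counting error only. By mean level the order was WT proximal (215 ± 162 CPM, SD, n = 4), WT distal (52.6 ± 66.8), HSCR proximal (8.33 ± 9.70) and HSCR distal (6.71 ± 12.6), and in this order each neighbour overlapped the next.

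**Figure D1:**
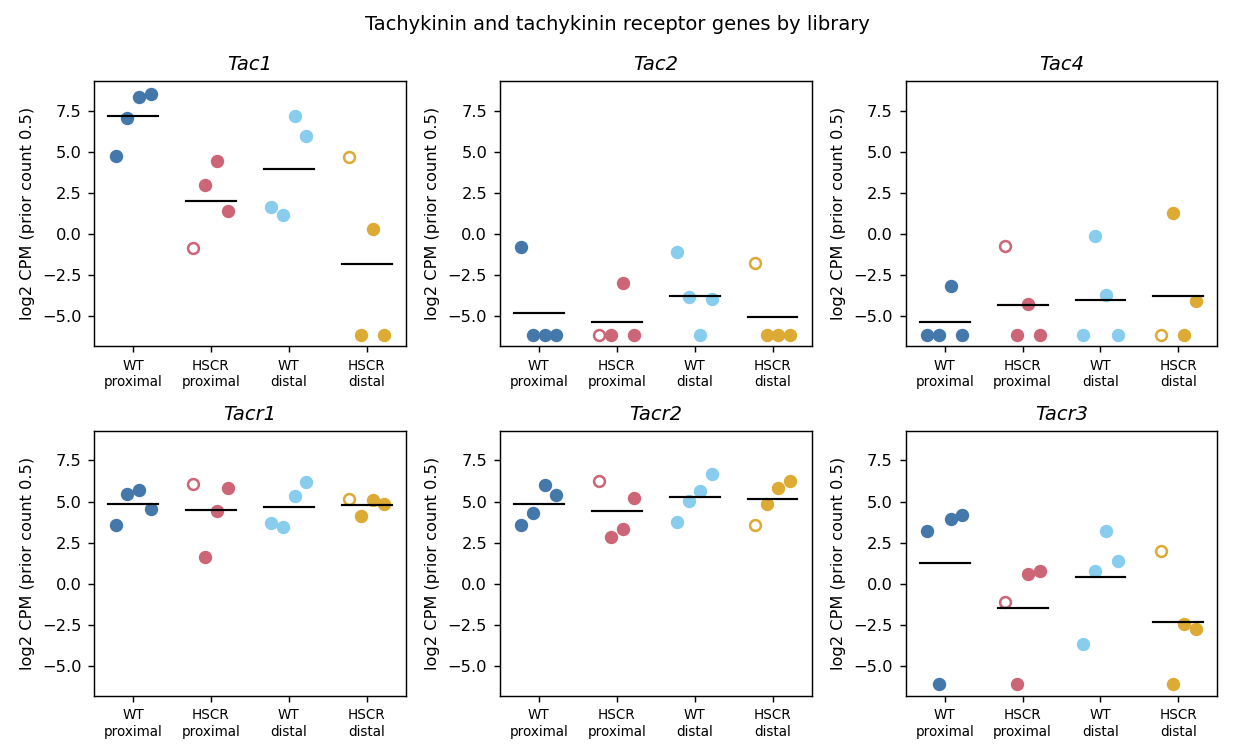
Level of each of the 6 genes in each library, as log2 CPM with a prior count of 0.5 (y axis), by group (x axis). Each point is 1 library, the bars are group means, and open points are the libraries labelled HSCR proximal 1 and HSCR distal 1. Tac1 was lower in all 4 HSCR proximal than in all 4 WT proximal libraries, Tacr1 and Tacr2 overlapped in every pair of groups, and the lowest points of Tac1, Tac2, Tac4 and Tacr3 are libraries with 0 counts.

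Tac2 was close to the limit of detection. It had 42 counts in all, in 6 libraries: 8 in WT proximal 1, 6 in HSCR proximal 3, 14, 2 and 2 in WT distal 1, 2 and 4, and 10 in the library labelled HSCR distal 1. No group had it in every library. The highest level was 0.574 CPM, in WT proximal 1.
Tac4 had 133 counts in 7 libraries. Of these, 66 counts (2.41 CPM) were in HSCR distal 2, 32 (0.898 CPM) in WT distal 2 and 24 (0.599 CPM) in the library labelled HSCR proximal 1, and the other 4 libraries held 2 to 4 counts each. Neither gene passed the filter on low counts in any comparison, so differences in them were not detectable at this depth by the fit across genes. Exact permutation tests of their log2 CPM gave p between 0.371 and 1 in the 4 comparisons (two-sided, n = 4 per group).

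Tacr1, the substance P receptor, was counted in all 16 libraries, between 3.11 and 73.4 CPM. Its WT proximal libraries held 12.1, 44.5, 52.8 and 23.8 CPM, and its HSCR proximal libraries 67.0 (the library labelled HSCR proximal 1), 3.11, 21.7 and 57.5 CPM. Its WT distal libraries held 12.8, 10.9, 40.3 and 73.4 CPM, and its HSCR distal libraries 36.2 (the library labelled HSCR distal 1), 17.3, 34.8 and 28.7 CPM. The group means lay between 29.2 and 37.3 CPM, and all 4 groups overlapped. The HSCR distal group, with the library labelled HSCR distal 1 kept in it, had the narrowest range, with an SD of 8.60 CPM against 18.7 to 30.0 in the other groups.

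Tacr2, the neurokinin A receptor, was also counted everywhere, between 7.05 and 104 CPM. The WT proximal libraries held 11.98, 20.1, 64.2 and 42.7 CPM, and the HSCR proximal libraries 75.9 (the library labelled HSCR proximal 1), 7.05, 9.90 and 37.0 CPM. The WT distal libraries held 13.6, 32.8, 50.7 and 104 CPM, and the HSCR distal libraries 11.98 (the library labelled HSCR distal 1), 28.5, 57.2 and 76.3 CPM. By mean level the order was WT distal (50.2 ± 38.8), HSCR distal (43.5 ± 28.8), WT proximal (34.7 ± 23.6) and HSCR proximal (32.5 ± 32.0), with all groups overlapping.

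Tacr3, the neurokinin B receptor, was the scarcest receptor. The WT proximal libraries held 9.11, 0, 15.4 and 17.8 CPM, so WT proximal 2 had no count, which allows up to 0.110 CPM. The HSCR proximal libraries held 0.450 (the library labelled HSCR proximal 1), 0, 1.49 and 1.69 CPM. Apart from WT proximal 2, the WT proximal libraries all lay above the HSCR ones.
The WT distal libraries held 0.0644, 1.68, 9.15 and 2.63 CPM, and the HSCR distal libraries 3.99 (the library labelled HSCR distal 1), 0, 0.169 and 0.137 CPM. The 3 other HSCR distal libraries had at most 6 counts each, whereas WT distal 3 alone had 443.

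Differences were fitted across all genes by edgeR's quasi-likelihood test, and the p-values were adjusted over all genes in the fit by the Benjamini-Hochberg method. To be called, a gene needed an adjusted p below 0.05 together with at least a log2 change of 1 in size. In HSCR against WT proximal colon, 4 of the 6 members had enough counts to be tested, and 0 were called, where the background was 0% of 16664 genes. At an unadjusted p under 0.05 the count was 1 member, Tac1, against 6.62% of all genes. The fitted log2 fold change of Tac1 was -4.71 (standard error, SE, 1.19, unadjusted p = 0.00331, adjusted p = 0.635). Tac1 was also the 1 member whose HSCR libraries lay wholly below the WT ones, as did 2.83% of all genes, and no member lay wholly above, as did 1.95%. The exact permutation p for Tac1 was 0.0286 (two-sided, n = 4 per group), the smallest that 4 libraries against 4 can give. Replicates 1 and 2, whose library names follow 1 scheme, gave a log2 CPM difference of -4.82. Replicates 3 and 4 gave -5.50, but their proximal libraries carry names of 2 further schemes, with HSCR proximal 3 alone in its scheme, so this is no within-scheme value. Without the library labelled HSCR proximal 1 the difference was -4.21 (exact permutation p = 0.0571). The HSCR libraries then lay wholly below by necessity, since all 4 did before, and 4.09% of all genes lay wholly below in that set. Whether Tac1 was called depended on the tool: DESeq2 called it (adjusted p = 0.000385, with 181 genes called in all), and so did RUVr with 4 factors, the method named by the study (adjusted p = 3.50e-12, with 3166 of 16664 genes called in all). The 4 factors came from the residuals of the same 8 libraries that were tested, which leaves little to estimate the spread from. Under the other alternatives, all with edgeR's quasi-likelihood test, the adjusted p of Tac1 lay between 0.159 and 0.936.

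The 3 receptors gave unlike values in the proximal fit, and differences between members were not tested. Tacr3 had a log2 fold change of -3.55 (SE 1.65, adjusted p = 0.748). Its groups overlapped through WT proximal 2, with an exact permutation p of 0.4 (two-sided, n = 4 per group). Tacr1 had a log2 fold change of 0.16 (SE 0.79, adjusted p = 0.979) and Tacr2 one of -0.10 (SE 0.78, adjusted p = 0.988). These standard errors leave room for differences of well over 1 on the log2 scale in either receptor, in either direction.

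In the distal colon, 0 of the 4 members tested were called, at a background of 0% of 17059 genes. None passed an unadjusted p under 0.05 either, against 2.64% of all genes. DESeq2 called 0 members, and RUVr called 2, Tac1 (-4.67) and Tacr3 (-2.58), among 1470 genes in all. Tac1 had a log2 fold change of -2.91 (SE 2.07, adjusted p = 1.00), Tacr3 one of -1.60 (SE 1.68), Tacr1 one of -0.21 (SE 0.58) and Tacr2 one of -0.20 (SE 0.66). No member lay wholly below WT, as did 1.15% of all genes, and none wholly above, as did 0.674%.
The distal difference of Tac1 was smaller with the library labelled HSCR distal 1 than without it. Without it, the 3 remaining HSCR distal libraries held 0 to 1.24 CPM and lay wholly below the 4 WT distal libraries, as did 3.28% of all genes. The difference of the log2 CPM then moved from -5.78 (exact permutation p = 0.114, two-sided, n = 4 per group) to -7.94 (exact permutation p = 0.0286, two-sided, n = 4 and 3). The fitted log2 fold change moved from -2.91 to -7.05, with an adjusted p of 0.813, and without WT distal 3 it was -1.63. For Tacr3 the fitted value was -5.01 without the library labelled HSCR distal 1 and -0.37 without WT distal 3, and its libraries overlapped the WT distal ones with or without the former.

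**Figure D2:**
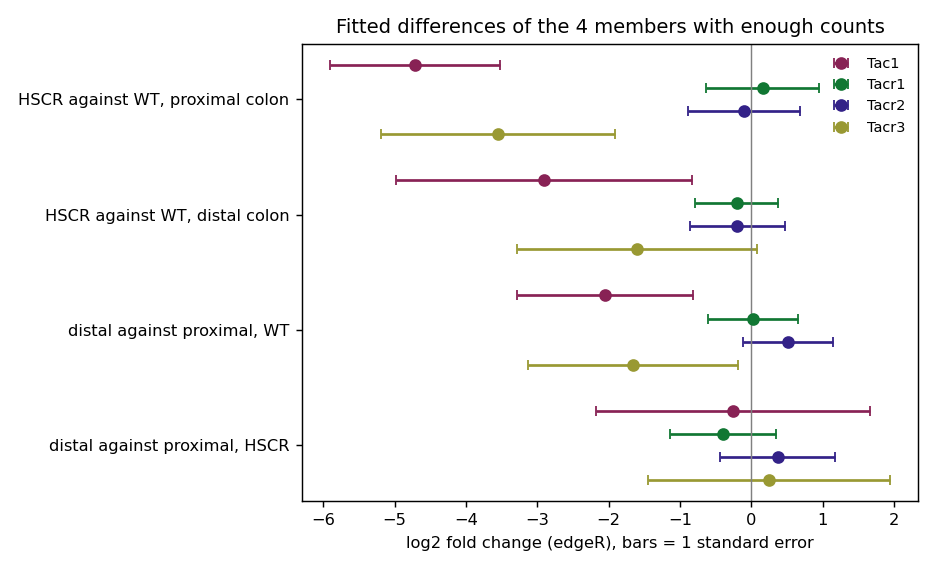
Log2 fold change of the 4 members with enough counts (x axis) in each of the 4 comparisons of groups of 4 libraries (y axis). Points are estimates from edgeR's quasi-likelihood fit, bars are 1 standard error, and the vertical line marks no difference. The bars of Tacr1 and Tacr2 crossed 0 in all 4 comparisons, and Tac1 in the proximal colon lay farthest from it, at -4.71.

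Along the WT colon, Tac1 was lower in the distal segment by mean level, with a log2 fold change of -2.06 (SE 1.23, adjusted p = 0.917) and an exact permutation p of 0.171 (two-sided, n = 4 per group). Tacr3 had a log2 fold change of -1.66 (SE 1.47, adjusted p = 0.923), Tacr2 one of 0.51 (SE 0.63) and Tacr1 one of 0.02 (SE 0.63). Of the 4 members tested, 0 were called, at a background of 0.0181%, which is 3 of 16566 genes. None passed an unadjusted p under 0.05, against 5.23% of all genes. No member was wholly lower in the distal segment, as 1.58% of genes were, and none wholly higher, as 2.69% were. DESeq2 called 0 members and RUVr called 1, Tac1, among 2529 of 16566 genes called in all.

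Along the HSCR colon 0 of 4 members were called, at a background of 0% of 17086 genes, and none passed an unadjusted p under 0.05, against 1.49% of genes. The fitted difference of Tac1 was -0.26 (SE 1.92), of Tacr1 -0.39 (SE 0.74), of Tacr2 0.37 (SE 0.80) and of Tacr3 0.25 (SE 1.70). The Tac1 value was 0.85 without HSCR proximal 3, 0.15 without HSCR distal 2 or HSCR distal 4, 0.09 without HSCR distal 3 and -4.41 without the library labelled HSCR distal 1, so its sign was not fixed. None of the groups was separate, as 0.562% (distal lower) and 0.708% (distal higher) of all genes were. Without the 2 libraries labelled HSCR proximal 1 and HSCR distal 1, Tac1 in the 3 distal libraries, at 0 to 1.24 CPM, lay wholly below the 3 proximal ones, at 2.68 to 22.1 CPM. That was so for 5.36% of genes, with an exact permutation p of 0.1, the smallest that 3 libraries against 3 can give. DESeq2 called 0 members and RUVr called 1, Tac1, at -4.62 (adjusted p = 1.30e-05), among 998 of 17086 genes called in all.
A further fit over all 16 libraries asked whether HSCR and WT differed by unlike amounts in the 2 segments. It called 0 members and 0% of 18619 genes, with 0 members and 1.44% of genes at an unadjusted p under 0.05. Neither DESeq2 nor RUVr called a member in it. For Tac1 that difference of differences was 1.80 (SE 2.34), for Tacr3 1.96 (SE 2.40), for Tacr1 -0.36 (SE 1.04) and for Tacr2 -0.09 (SE 1.09). The signs of the Tac1 and Tacr3 values rested on the library labelled HSCR distal 1, without which they were -2.34 and -1.46.

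Tac1 moved with the content of nerve in a library, and Tacr3 did so less closely. The mean log2 CPM of 15 pan-neuronal genes (among them Elavl4, Uchl1, Snap25 and Tubb3) was between 5.15 and 7.64 in WT proximal, 2.15 and 5.90 in HSCR proximal, 2.15 and 6.93 in WT distal and -0.62 and 6.01 in HSCR distal libraries. The highest HSCR distal value was that of the library labelled HSCR distal 1, and the other 3 were at most 2.59. Over the 16 libraries log2 CPM of Tac1 followed this mean with a Pearson r of 0.850 and a Spearman rho of 0.884, as a description of libraries that share depth and scaling, and without the 2 libraries in doubt r was 0.840. For Tacr3 r was 0.651, for Tacr1 0.334 and for Tacr2 -0.0248. The value of Tacr3 was not particular to nerve, with r of 0.564 for enteric glia genes and 0.528 for smooth muscle genes. For Tac1 these were 0.704 and 0.0569. In bulk tissue, fewer nerve cells and less Tac1 RNA per nerve cell cannot be told apart.
Taken relative to the pan-neuronal mean, the log2 level of Tac1 was -0.41 to 1.12 in WT proximal and -4.38 to 0.83 in HSCR proximal libraries. The difference was -2.51 (exact permutation p = 0.114, two-sided, n = 4 per group, Benjamini-Hochberg adjusted over 18 such tests 0.294), and the groups overlapped through HSCR proximal 2, the library at 0.83. For distal libraries it was -3.04 (exact permutation p = 0.171, adjusted 0.343). Without the libraries in doubt the values were -2.18 and -3.95. Tacr3 relative to the same list differed by -0.11 in proximal and by -0.0094 in distal tissue (exact permutation p = 1 in each), but these are means over opposite values. Replicates 1 and 2 gave 1.46 and -1.62, replicates 3 and 4 gave -1.69 and 1.60, and the proximal value was -2.49 without WT proximal 2 and 1.02 without WT proximal 1. Tacr1 relative to it differed by 2.30 (exact permutation p = 0.0571, adjusted 0.206) and 2.88 (exact permutation p = 0.143, adjusted 0.321). Without the libraries in doubt these were 1.16 and 4.01, and the distal value was 0.064 in replicates 1 and 2 and 5.70 in replicates 3 and 4. Beside these ratios, the pan-neuronal mean itself differed by -2.64 in proximal and -2.73 in distal tissue, with overlapping groups, and log2 CPM of Tacr1 by -0.34 and 0.15.

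**Figure D3:**
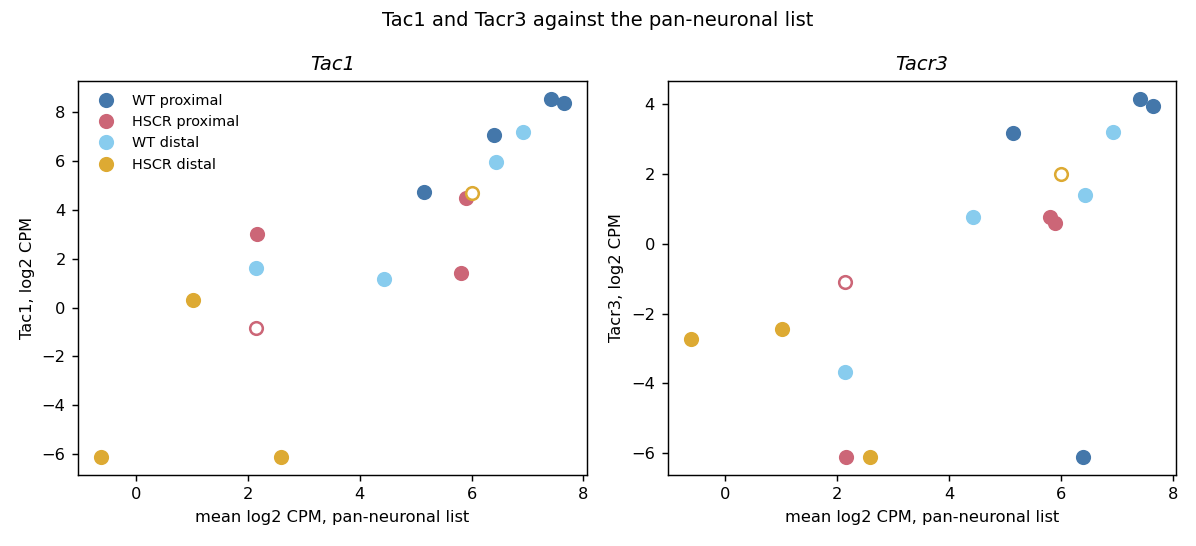
Log2 CPM of Tac1 (left) and Tacr3 (right) on the y axis against the mean log2 CPM of the 15 pan-neuronal genes on the x axis. Each point is 1 library, coloured by group, and open points are the libraries labelled HSCR proximal 1 and HSCR distal 1. Libraries with a higher pan-neuronal mean held more Tac1 (r = 0.850). In the left panel only, the library labelled HSCR distal 1 lies closest to HSCR proximal 3, with Tac1 at -1.33 and -1.43 relative to the pan-neuronal mean.

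Tac1 was also set against the genes of other transmitters. Penk makes enkephalins and is shared by many excitatory enteric neurons, Vip and Nos1 mark inhibitory motor neurons, and Chat marks cholinergic neurons. In the WT proximal libraries, in which Tac1 ranged from 26.7 to 371 CPM, the log2 ratio of Tac1 to Penk stayed at -0.59, -0.61, -0.62 and -0.80. In the HSCR proximal libraries it was -6.19 (the library labelled HSCR proximal 1), -0.97, -2.03 and -4.28, each below every WT value. The difference was -2.72 (exact permutation p = 0.0286, two-sided, n = 4 per group, adjusted over 18 tests 0.171), and without the library labelled HSCR proximal 1 it was -1.77. Leaving a library out cannot join groups that are apart. Penk itself had a proximal log2 fold change of -2.82 (SE 0.82, adjusted p = 0.691) beside the -4.71 of Tac1.

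The ratio of Tac1 to Vip separated the genotypes in both segments. In the proximal colon Tac1 itself already lay wholly below WT, which bears on its ratios to Penk and to Vip. How often the ratio of Tac1 to any other gene separates the genotypes was not counted. In WT proximal libraries it was 0.91, 0.58, 0.53 and 0.02 on the log2 scale. In HSCR proximal libraries it was -3.56 (the library labelled HSCR proximal 1), -1.16, -6.23 and -8.31. In WT distal libraries it was -0.79, -2.23, -1.79 and -2.16, and in HSCR distal libraries -3.88 (the library labelled HSCR distal 1), -5.82, -3.36 and -4.62. All 4 HSCR libraries of each segment lay below all 4 WT libraries of that segment.
The differences were -5.32 for proximal and -2.68 for distal libraries (exact permutation p = 0.0286 in each, two-sided, n = 4 per group, adjusted over 18 tests 0.171). Within replicates 1 and 2 the differences were -3.10 and -3.34. Within replicates 3 and 4, where the proximal libraries mix name schemes, they were -7.54 and -2.02. Without the libraries labelled HSCR proximal 1 and HSCR distal 1 they were -5.74 and -2.86. Because the full groups were apart, no such subset could change the direction or join the groups, so these values show size only. The distal values of HSCR distal 2 and 4, which had no Tac1 count, depend on the prior count, and with a prior count of 2 the distal difference was -1.74. None of the 18 ratio tests passed 0.05 after adjustment, and 3 of them reached 0.0286, the smallest exact p possible.

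Vip itself was split between the HSCR proximal libraries, which held 6.62 (the library labelled HSCR proximal 1), 17.9, 1655 and 859 CPM, against 14.2 to 367 CPM in WT proximal. The difference in log2 CPM was 0.17 with overlapping groups. Its mean was 174 CPM in WT proximal and 634 CPM in HSCR proximal libraries, a fitted log2 fold change of 1.83 (SE 1.501, adjusted p = 0.820). In distal libraries its mean was 97.8 CPM for HSCR and 197 CPM for WT, a log2 fold change of -0.94 (SE 1.97). The ratio of Tac1 to Nos1 differed by -3.80 in the proximal (exact permutation p = 0.0857, two-sided, n = 4 per group) and by -2.04 in the distal colon (exact permutation p = 0.286), with overlapping groups. The ratio to Penk in the distal colon differed by -5.24 (exact permutation p = 0.0571), and by -6.56 with separate groups once the library labelled HSCR distal 1 was left out.
The ratio of Tac1 to Chat differed by -0.62 in the proximal colon (exact permutation p = 0.714, two-sided, n = 4 per group). Chat was at 0 counts in all 4 HSCR distal libraries, so a distal ratio to it has no meaning. In the proximal colon Chat had a log2 fold change of -4.06 (SE 1.71, adjusted p = 0.747), beside the -4.71 of Tac1.

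**Figure D4:**
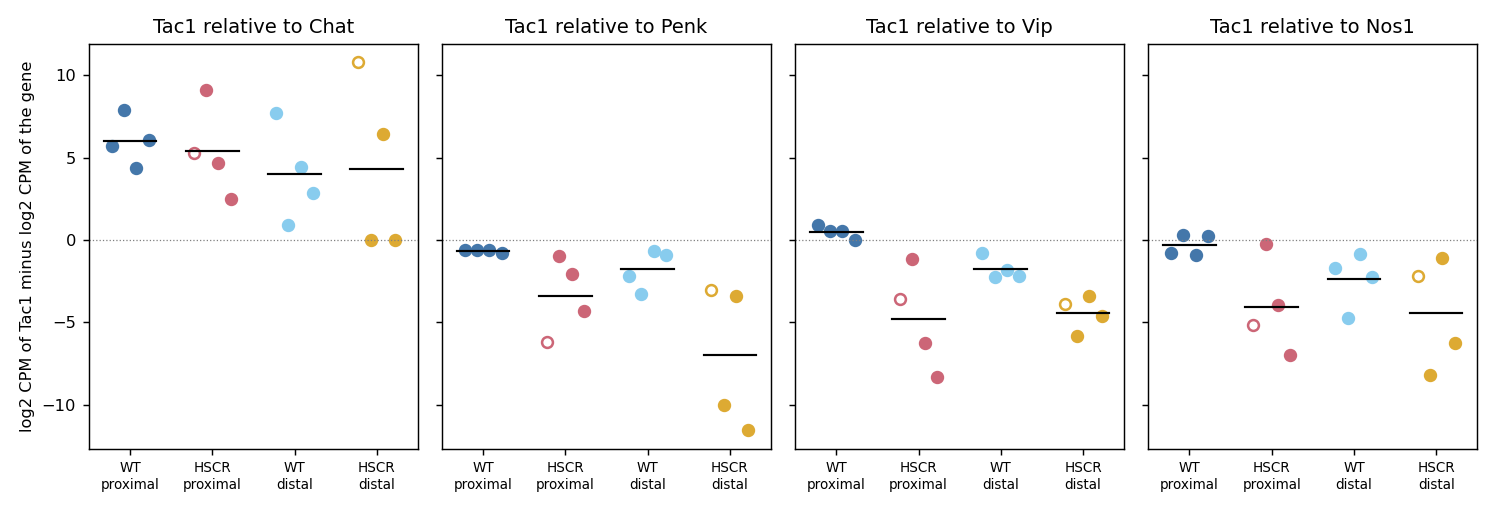
Log2 CPM of Tac1 minus log2 CPM of Chat, Penk, Vip or Nos1 (y axis, 1 panel per gene) by group (x axis). Each point is 1 library, the bars are group means, the dotted line marks equal CPM, not adjusted for gene length, and open points are the libraries labelled HSCR proximal 1 and HSCR distal 1. The WT proximal libraries cluster near 0 for Penk, Vip and Nos1, and for Vip the HSCR libraries lie below the WT ones in both segments.

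Tacr1 and Tacr2 moved more with muscle than with nerve. Over the 16 libraries log2 CPM of Tacr1 followed the mean of 10 smooth muscle genes (among them Acta2, Myh11 and Des) with r = 0.873 and rho = 0.815, and Tacr2 with r = 0.720. The 2 receptors had r = 0.7004 with each other, and r of 0.161 and -0.128 with Tac1. Tacr1 also followed 4 genes of Pdgfra cells (r = 0.813) and 4 genes of interstitial cells of Cajal (r = 0.688), and Tacr2 ran opposite to 8 macrophage genes (r = -0.823). Without the 2 libraries in doubt, r with smooth muscle was 0.874 for Tacr1 and 0.759 for Tacr2, and r with the pan-neuronal mean 0.430 and 0.0993. These are descriptions over libraries of unequal tissue content.
HSCR proximal 2 had the lowest Tacr1 (3.11 CPM) and the lowest Tacr2 (7.05 CPM) of all libraries. Its smooth muscle mean was also the lowest, 6.87 against 9.72 to 11.4 in the other 15 libraries, and its 14 epithelial genes summed to 18434 CPM, the highest of any library. Relative to the smooth muscle mean, Tacr2 differed between genotypes by 0.13 in the proximal (exact permutation p = 0.914, two-sided, n = 4 per group) and by -0.29 in the distal colon (exact permutation p = 0.629). The smooth muscle mean itself differed by -0.57 and 0.13.

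**Figure D5:**
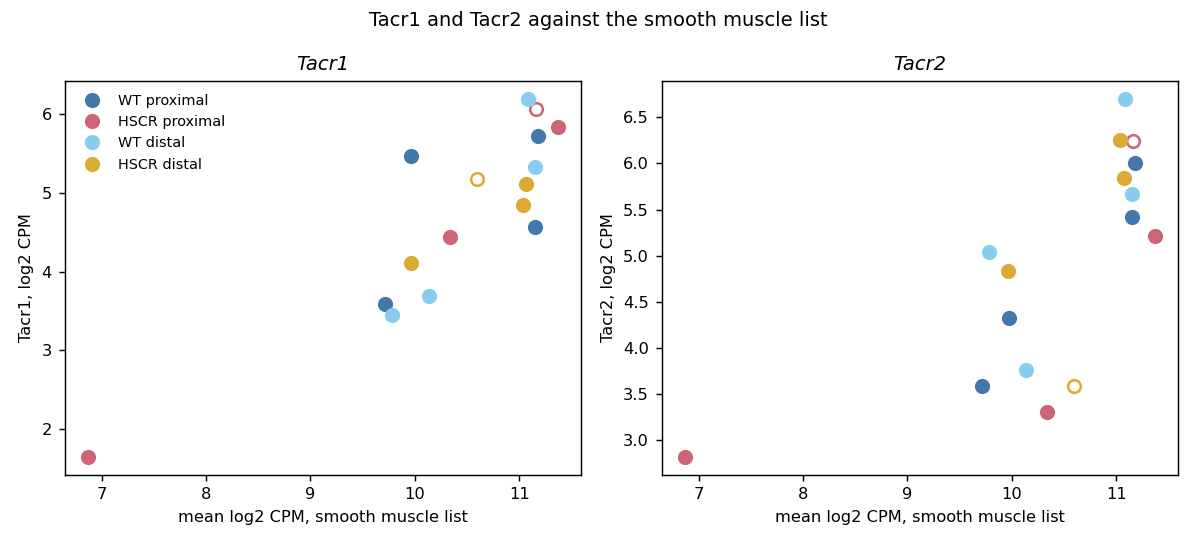
Log2 CPM of Tacr1 (left) and Tacr2 (right) on the y axis against the mean log2 CPM of the 10 smooth muscle genes on the x axis. Each point is 1 library, coloured by group, and open points are the libraries labelled HSCR proximal 1 and HSCR distal 1. The lowest point in both panels is HSCR proximal 2, with 3.11 CPM of Tacr1 and 7.05 CPM of Tacr2.

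Other tissue content moved with the proximal comparison as well. HSCR minus WT, the mean log2 CPM of 8 enteric glia genes differed by -1.84 and that of 6 adipocyte genes by -4.48, each with separate groups (exact permutation p = 0.0286, two-sided, n = 4 per group). Without the library labelled HSCR proximal 1, an omission that cannot join separate groups, these were -1.69 and -4.45. The epithelial mean differed by 5.14 and that of 10 enteroendocrine genes by 1.96, both with overlapping groups. Enteroendocrine cells are a known source of Tac1 outside the nerves, and their gene Tph1 was at 30.7 CPM in HSCR proximal 2 and at 0 to 7.03 CPM in the other 15 libraries. Their list summed to between 5.22 and 280 CPM in HSCR proximal, 10.3 and 30.1 in WT proximal, 1.94 and 18.9 in WT distal and 0.891 and 26.7 in HSCR distal libraries. The proximal lists for interstitial cells of Cajal, Pdgfra cells and macrophages differed by 0.34, -0.29 and 0.16, with overlapping groups. All of these lists overlapped in the distal colon. The part of these contents in the Tac1 values was not tested.

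Genes that make, store and release peptides gave no call in any comparison. Of 12 such genes, all tested, 0 were called higher and 0 lower in the proximal colon by edgeR's quasi-likelihood test. Fold changes were below 0 for 10 of the 12, against 46.8% of all genes, with a median of -1.31 against 0.04, and 2 were lower at an unadjusted p under 0.05, which 6.62% of all genes passed. The pan-neuronal mean was lower in the same comparison, and its part in these values was not tested. The smallest p was that of Pcsk1n, which encodes an inhibitor of a prohormone convertase, at -2.39 (SE 0.90, unadjusted p = 0.0265, adjusted p = 0.747). For the distal colon 0 were called and 10 of 12 were below 0, against 46.1% of all genes, with a median of -1.56 against 0.04. Without the libraries in doubt, 9 of 12 were below 0 in the proximal (median -1.07) and 11 of 12 in the distal colon (median -3.20), where 6 then had an unadjusted p under 0.05 against 5.24% of all genes, and 0 were called. The smallest p was that of Pcsk2, a convertase that cuts peptide precursors, at -3.92 (SE 1.65, unadjusted p = 0.0420, adjusted p = 1.00).
Along the WT colon all 12 were below 0 in the distal segment (median -0.90 against 0.03, and 48.3% of all genes below 0), with Scg3, a granule protein, first by p at -1.46 (adjusted p = 0.906). Along the HSCR colon all 12 were also below 0 (median -1.33 against -0.04, and 52.9% of all genes below 0), led by Chgb, another granule protein, at -2.30 (adjusted p = 1.00). In neither were any called, or any at an unadjusted p under 0.05, but without the 2 libraries in doubt 7 of the 12 passed that limit along the HSCR colon, all lower in the distal segment, against 4.91% of all genes. In the test between segments the count called was 0 and the median -0.02 (-2.65 without the libraries in doubt), and Chgb again had the smallest p, at -1.503 (SE 1.69).

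Peptidases that can break tachykinins down formed another list. Of its 8 genes, 6 could be tested in the proximal colon, and 0 were called and 0 had an unadjusted p under 0.05. All 6 were above 0, with a median of 0.44 against 0.04 over all genes, and without the library labelled HSCR proximal 1 the median was 0.26 with 1 of 6 below 0. Dpp4, which trims the amino end of substance P, had the smallest p in both segments, with log2 fold changes of 1.44 in the proximal (SE 0.95, adjusted p = 0.790) and 1.16 in the distal colon (SE 0.53, unadjusted p = 0.0563). In the distal colon 7 could be tested, with a median of 0.25 against 0.04, and none had an unadjusted p under 0.05. Without the library labelled HSCR distal 1, 1 of the 7 was lower at that limit, against 5.24% of all genes, and the median was 0.33. Along the WT colon, where 6 could be tested (median 0.14), the smallest p was that of Mme, or neprilysin, a peptidase that cuts substance P, at 1.19 (SE 1.13) from means of 0.954 CPM in proximal and 2.19 CPM in distal libraries. Along the HSCR colon (6 tested, median -0.03) it was that of Prep, a proline-cutting peptidase, at -0.13 (SE 0.25), and in the test between segments (7 tested, median -0.28) again that of Prep, at -0.44 (SE 0.47). None was called in these 4 tests either. Without the 2 libraries in doubt, 1 of 6 was higher in the distal HSCR segment at an unadjusted p under 0.05, against 4.91% of all genes.

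For the machinery downstream of the receptors, 24 genes were tested in every comparison and 0 were called in any. In the proximal colon 2 were lower and 0 higher at an unadjusted p under 0.05, where the background was 6.62%, the first being Prkce, a protein kinase C, at -1.06 (SE 0.37, unadjusted p = 0.0187, adjusted p = 0.747). Distally 3 were lower and 1 higher, at a background of 2.64%, the higher one being Rgs2, which turns off Gq signalling, at 1.22 (SE 0.44, unadjusted p = 0.0222). Without the libraries in doubt, 2 were lower and 0 higher in the distal colon, at a background of 5.24%. In the proximal colon 2 were then lower and 1 higher, at a background of 5.69%. Along the WT colon 5 were higher and 1 lower in the distal segment, at a background of 5.23%. The lower was again Rgs2, at -1.34 (SE 0.27, unadjusted p = 0.000670, adjusted p = 0.788), with means of 277 CPM in WT proximal and 110 CPM in WT distal libraries and no overlap, as for the 1.58% of all genes that were wholly lower. Along the HSCR colon none passed an unadjusted p under 0.05, and without the 2 libraries in doubt 1 was higher, at a background of 4.91%. The first with all libraries was Plcb2, a phospholipase C, at -2.24 (SE 1.03, unadjusted p = 0.0580). It also came first between the segments, at -3.59 (SE 1.71), at levels of 0.262 to 1.24 CPM by group mean.

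The genes whose log2 CPM ran most like a member's over the 16 libraries were found among 18618 genes. For Tac1 they were Lrrc8b, a subunit of volume-regulated anion channels (r = 0.965), Grp, the gene of gastrin-releasing peptide (r = 0.963), and Slc18a3, the vesicular acetylcholine transporter (r = 0.946). For Tacr3 they were Pak5, a protein kinase (r = 0.953), Paqr9 (r = 0.947) and Trim17 (r = 0.919). For Tacr1 they included Atp2b4, a plasma membrane calcium pump (r = 0.943), and Tenm2, a cell adhesion protein (r = 0.941). For Tacr2 they were Cped1 (r = 0.917), Ipo13, a nuclear import receptor (r = 0.910), and Kcns3, a potassium channel subunit (r = 0.901). No gene appeared for more than 1 member, and the values are maxima over many genes in libraries that share their scaling.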

How the data were processed

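The authors isolated LMMP, extracted RNA, enriched polyadenylated RNA, aligned reads to mm39 (HISAT2 2.2.1) and summarised them by gene against a GENCODE model (featureCounts 2.0.6), per the submitters' processing notes and the Methods. What the authors deposited and what was used here are raw read counts per gene. The protocol describes stranded and unstranded libraries, and which was used is not given in the sources used here. The authors' own fold changes and p-values were not used.

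The members and gene lists were chosen with earlier results of these data known. CPM used TMM factors over all genes and 16 libraries, and log2 CPM a prior count of 0.5. Genes were tested across the table with edgeR 4.0.16 (filterByExpr, TMM, quasi-likelihood test) on the 8 libraries of each comparison, or on all 16 for the difference between segments, with Benjamini-Hochberg adjustment over all genes. Groups follow the titles, with 4 libraries each. The labels do not say that these came from separate mice, so p-values measure the spread between libraries. Levels and ratios were tested by exact permutation of libraries between groups, two-sided. Named list genes are those called or, where none was, the 1 with the smallest p per list and comparison, and likeness is the 3 highest Pearson correlations, of which 1 is not reported here. Replicates 1 and 2 carry library names of 1 scheme and replicates 3 and 4 of 2 others: the distal libraries of replicates 3 and 4 share 1, WT proximal 3 and 4 and HSCR proximal 4 the other, and HSCR proximal 3 has the distal one. Within replicates 3 and 4 the WT segments cannot be told apart from the scheme. Alternatives were DESeq2 1.42.0, RUVr with 4 factors computed from edgeR's residuals, no filter, 1 fit of 16 libraries, the replicate number or replicates 1 and 2 against 3 and 4 as a term, a prior count of 2, and leaving out libraries, for the gene lists and correlations added after seeing the data. The fits were tested on simulated data. Precision was set by the spread between libraries (biological coefficient of variation 0.700 to 0.794). Gene positions are those of the deposited table, and coding sequences were read from GRCm39.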

Additional observations from a re-analysis of the deposited data

Results flagged for a closer look

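Values far from the other 3 libraries of their group, by Dixon's criterion, were looked for in 24 groups, the 4 groups of each of the 6 genes. For continuous values chance flags about 5% of groups. That rate does not hold here, because a group with a single library above 0 and the others at 0 is always flagged. Past the criterion were 5 values, and 4 of them are of that kind, single libraries with a few counts where the others had 0. Tac2 stood apart in WT proximal 1 at 0.574 CPM (8 counts), in HSCR proximal 3 at 0.114 CPM (6 counts) and in the library labelled HSCR distal 1 at 0.279 CPM (10 counts). Tac4 stood apart in WT proximal 3 at 0.0992 CPM (4 counts).

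The remaining value was an absence. Tacr3 had 0 counts (0 CPM) in WT proximal 2, whereas the other WT proximal libraries held 9.11 to 17.8 CPM. That library had a pan-neuronal mean of 6.39 and 134 CPM of Tac1, both within the range of its group.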

How the results depend on the processing

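The number of members called was 0 in all 5 fits. DESeq2 gave 1 in the proximal colon (Tac1), and RUVr with 4 factors gave 1 there (Tac1), 2 in the distal colon (Tac1 and Tacr3) and 1 in each comparison of segments (Tac1). No filter, 1 fit of 16 libraries, replicates 1 and 2 against 3 and 4 as a term and every left-out library gave 0. Over all genes DESeq2 called 181, 22, 47, 5 and 6, and RUVr 3166, 1470, 2529, 998 and 633, in the order proximal, distal, WT segments, HSCR segments and between segments, where the quasi-likelihood test called 0, 0, 3, 0 and 0. The cause was not tested.

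Tac1 in the proximal colon kept its direction under every alternative, between -5.79 and -4.30 on the log2 scale with a library left out. Because its groups did not overlap, leaving a library out could not change that direction. RUVr turned Tacr1 to -0.16 (proximal), 0.067 (distal), -0.061 (WT segments), 0.20 (HSCR segments) and 0.22 (between segments), Tacr2 to 0.046 (between segments), and Tacr3 to 1.76 (WT segments) and -1.24 (HSCR segments). DESeq2 turned Tacr1 to -0.011 (WT segments). The term for replicates 1 and 2 against 3 and 4 turned Tacr2 to 0.081 (proximal), Tacr1 to 0.17 (distal) and -0.32 (WT segments), and Tacr3 to -0.12 (HSCR segments). A prior count of 2 turned Tacr3 relative to the pan-neuronal list to 0.43 and Tac1 relative to Chat to -0.17, both distal, where Chat had no count in HSCR libraries.

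With the replicate number as a block, 0 members were called and the counts over all genes were 0, 0, 1, 0 and 0. It moved Tac1 from -2.91 to -6.55 (distal) and from -0.26 to -4.78 (HSCR segments). It turned Tacr1 to -0.23 (proximal), 0.15 (distal), -0.16 (WT segments), 0.22 (HSCR segments) and 0.26 (between segments), and Tacr3 to -1.75 (HSCR segments) and -0.21 (between segments). The numbers were not taken to pair libraries: the correlations of same-numbered libraries ranged from -0.21 to 0.43, and 7 of 16 libraries correlated best with their own number.

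With 1 library left out, or both doubtful ones, the ranges were as follows. In the proximal colon Tacr1 ranged from -0.26 to 0.55 and Tacr2 from -0.91 to 0.35. In the distal colon Tacr1 ranged from -0.52 to 0.43, Tacr2 from -0.64 to 0.39 and Tacr3 from -5.01 to -0.37. Between WT segments Tacr1 ranged from -0.62 to 0.32 and Tacr2 from -0.078 to 0.96. Between HSCR segments Tac1 ranged from -4.80 (without both doubtful libraries) to 0.85 (without HSCR proximal 3), Tacr1 from -0.78 to 0.030, Tacr2 from -0.071 to 1.504 and Tacr3 from -3.16 (without the library labelled HSCR distal 1) to 0.70. For the difference between segments Tac1 ranged from -2.73 (without both doubtful libraries) to 3.05 (without WT distal 3), Tacr1 from -0.74 to 0.23, Tacr2 from -0.54 to 1.02 and Tacr3 from -1.69 to 3.15.

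Of the 10 ratios to cell type lists, 0 separated the genotypes, 2 did within replicates 1 and 2 and 9 within replicates 3 and 4, where 2 libraries face 2 and 8 of the ratios share the pan-neuronal list, and 0 to 1 did with a library left out. Of the 8 ratios to transmitter genes 3 did, and these 3 must also do so in any subset of the libraries. The counts were 3 within replicates 1 and 2 and 5 within replicates 3 and 4. The 18 ratio tests include those of Tac2 and the distal one to Chat, which rest on libraries without counts. Tac2 and Tac4 were too scarce for any comparison.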
